A study of Mus musculus with 30 samples.

Results

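The 9 genes described here make, carry or bind retinoic acid, the active form of vitamin A. They were chosen by name: the enzymes Rdh10, Aldh1a1 and Aldh1a2, the binding proteins Crabp1, Crabp2 and Rbp4, and the receptors Rara, Rarb and Rarg. Every probe set whose platform annotation gave one of these symbols and no other was taken, which gave 19 of 36701 probe sets, for 9 of 15964 named genes. Of the 19, 8 lay on chip A, 7 on chip B and 4 on chip C of the Affymetrix MG-U74 version 2 set, where a probe set is a group of short probes to one transcript.

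NMRI mouse embryos, of an outbred strain, gave dorsal pancreas RNA at embryonic day 12.5 (e12.5), e13.5, e14.5, e15.5 and e16.5. The labels name no genetic change and no treatment, and the groups are told apart by embryonic age. Pancreata were pooled by litter, each pool's RNA was labelled with 2 independent reactions, and both labellings went to all 3 chips, giving 30 arrays with 2 per stage and chip. The sources used here do not say how many litters or embryos each stage drew on. Since both labellings come from a single pool, their spread (SD, n = 2) is technical, and stage and pool cannot be told apart.

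Values are log2 expression values as deposited, made with RMA, which corrects background and brings the single probes of all arrays of a chip to a common distribution. The probe set values made from them were not on exactly the same distribution, and quantile normalization applied again changed some of them. A difference of 1 is a 2-fold difference. The medians of single arrays ran from 5.71 to 5.76 on chip A, 5.26 to 5.31 on chip B and 3.99 to 4.02 on chip C, and labellings of one stage had correlations across probe sets of 0.996 to 0.998. The files give no detection calls, so the chip median (5.74, 5.29 and 4.01) serves as a reference for dimness. Of the 19 probe sets, 11 lay above the median of their chip at every stage, 2 at some stages and 6 below it at every stage. Levels were set side by side between probe sets to choose the one that stands for a gene in the counts by gene. They were also summed over genes for the lists of cell type markers.

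Retinoic acid is made from vitamin A (retinol) in 2 oxidation steps. RDH10 carries out much of the first, from retinol to retinaldehyde, in the embryo, and the ALDH1A enzymes carry out the second, to retinoic acid. RBP4 carries retinol in blood, CRABP1 and CRABP2 hold retinoic acid inside cells, and CYP26 enzymes break it down. The receptors RARA, RARB and RARG bind DNA as partners of retinoid X receptors and switch target genes on when they hold retinoic acid. In the early embryo, retinoic acid from the mesoderm is needed for the dorsal pancreatic bud to form.

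On the RefSeq annotation of GRCm38.p6, Rdh10 lies on chromosome 1, 16105882 to 16132550, Aldh1a1 on chromosome 19, 20492583 to 20643463, and Aldh1a2 on chromosome 9, 71215789 to 71296243. Crabp1 lies on chromosome 9, 54764748 to 54773110, Crabp2 on chromosome 3, 87948693 to 87953372, and Rbp4 on chromosome 19, 38116620 to 38125321. Rara lies on chromosome 11, 98927800 to 98974942, Rarb on chromosome 14, 16430839 to 17082331, and Rarg on chromosome 15, 102234938 to 102257522. Which exon or untranslated region each probe set reads was not analysed here.

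Receptors of this family bind pairs of short repeats, and the 3 promoters below show where such a pair lay close to a start and where none was found. The 250 bases before each RefSeq transcript start were searched on both strands for GTTCA followed, after 6 bases of any kind, by a second GTTCA. This repeat was present in 22 of 32851 promoters (0.067%). Promoters were found for 7 of the 9 genes (13 promoters), all but Rdh10 and Crabp2, and of the 7 only Rarb held it. The match lay 52 to 37 bases before the start on the gene's own strand. The breakdown enzyme gene Cyp26a1 held it too, on the opposite strand, 32 to 17 bases before its start. Aldh1a1, shown because it had the largest change among the 9 genes, has 2 promoters in the table, and neither held a match. The one before the gene's outer start is at chr19:20492333-20492582, and the one printed lies inside the gene span given above. The sequences read 5′ to 3′ along the gene, with the match in capitals. Rarb is at chr14:16575477-16575726 on the minus strand, Cyp26a1 at chr19:37697558-37697807 and Aldh1a1 at chr19:20601718-20601967, both on the plus strand. The printed Rarb promoter, the sole promoter searched for that gene, also lies inside its gene span and not before its outer start.

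Rarb: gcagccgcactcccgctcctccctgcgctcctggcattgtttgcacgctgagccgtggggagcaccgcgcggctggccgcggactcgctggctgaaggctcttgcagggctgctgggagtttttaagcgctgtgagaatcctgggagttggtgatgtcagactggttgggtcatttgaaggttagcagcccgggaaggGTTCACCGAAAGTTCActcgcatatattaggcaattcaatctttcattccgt

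Cyp26a1: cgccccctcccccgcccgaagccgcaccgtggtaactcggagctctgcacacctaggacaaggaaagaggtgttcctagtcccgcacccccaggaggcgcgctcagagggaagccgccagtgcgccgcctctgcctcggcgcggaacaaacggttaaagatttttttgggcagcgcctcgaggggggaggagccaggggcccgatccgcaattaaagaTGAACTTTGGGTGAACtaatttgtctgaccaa

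Aldh1a1: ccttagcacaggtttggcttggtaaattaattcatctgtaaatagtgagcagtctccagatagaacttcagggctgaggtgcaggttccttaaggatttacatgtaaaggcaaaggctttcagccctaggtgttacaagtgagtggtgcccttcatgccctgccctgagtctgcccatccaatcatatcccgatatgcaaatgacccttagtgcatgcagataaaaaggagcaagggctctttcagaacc

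The same arrangement of GGTCA was present in 25 of the promoters (0.0761%) and in none of those of the 7 genes. The TATAAA box was present in 4063 (12.4%), and among the 7 genes in Rbp4 alone, 28 to 23 bases before the start. These matches are a description of letters, not of bound sites. Of the genes with the first repeat, 7 were measured, of which 1 rose and 1 fell over the stages. The 1 that fell was Rarb itself. Among all genes 11.9% rose and 17% fell, so these counts are not a result about the repeat.

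Change with stage was measured as a line over embryonic day through the 5 pool means of a probe set, and is given as the fitted change over the 4 days with its standard error. It passed where limma's p, adjusted over all 36701 probe sets by the Benjamini-Hochberg method, was under 0.05. Stages were also compared directly over the 10 arrays of a chip, where a difference was called if it was at least 2-fold with an adjusted p under 0.05. These direct tests measure the spread between labelling reactions only.

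Rdh10, of the first oxidation step, fell, and Aldh1a1, of the second, rose, while Aldh1a2, also of the second, did not pass. Of the 19 probe sets, 1 rose (Aldh1a1), 9 fell and 9 did not pass. Among all probe sets, 10.6% rose and 13.1% fell. The median fitted change of the 19 was -0.38, against 0.03 over all probe sets. With 1 probe set for each gene, that with the highest mean log2 value, 1 of 9 genes rose and 3 fell (Rdh10, Rara and Rarb), where 11.9% of all genes rose and 17% fell. Chips were normalized separately, so their values are not on one scale, but ranking probe sets within their chip chose the same probe set for 9 of the 9 genes. Crabp2 counts as not passed by its chip C probe set, while its chip A probe set fell, and 4 of the 9 genes had any probe set that fell. The share of all genes with any probe set that fell was not counted. The 17% is for 1 probe set per gene, so the count of 4 is not a result about the members. Without the e13.5 pool 5 of the 19 probe sets fell, where 8.99% of all probe sets did. The probe sets that stand for Rara and Rarb then did not pass, and of the 3 falling genes Rdh10 alone kept its call.

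**Figure D1:**
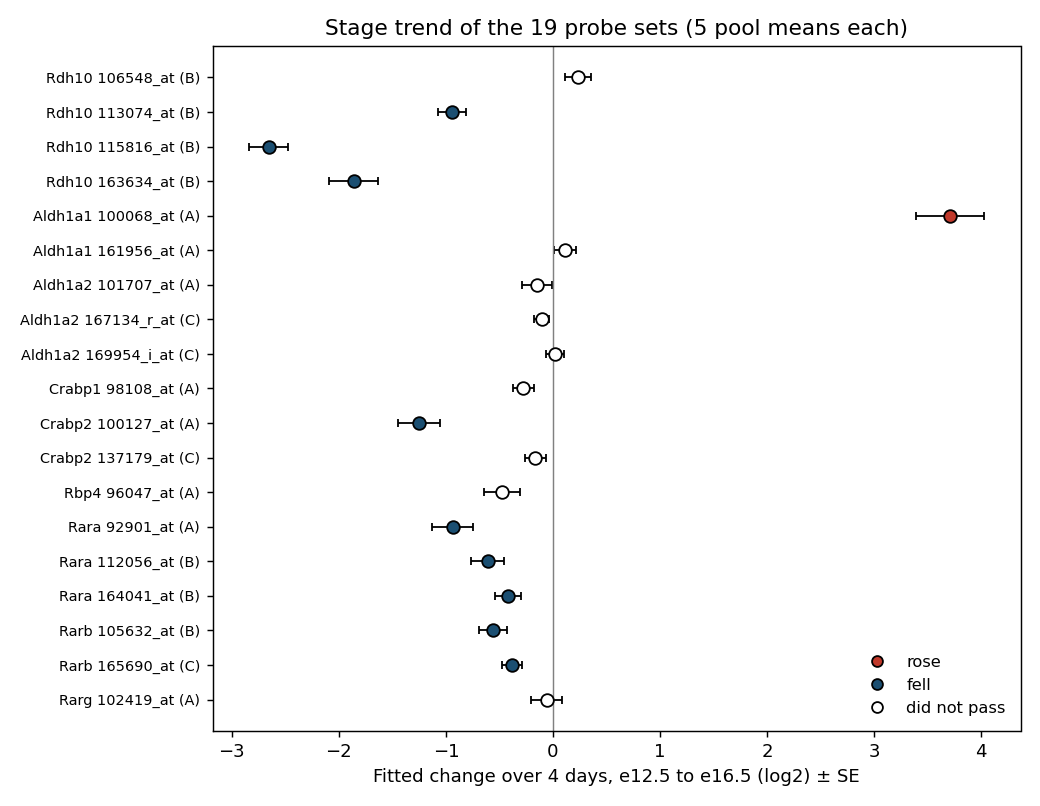
Fitted change over the 4 days (log2, x axis) with its standard error for each of the 19 probe sets, with the chip in brackets. Red marks a rise and blue a fall at an adjusted p under 0.05, and open points did not pass. Aldh1a1 100068_at stands at 3.71 and Rdh10 115816_at at -2.65, while all other points lie between -1.86 and 0.23.

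Rdh10, the retinol dehydrogenase of the first step, had 4 probe sets, all on chip B. On 115816_at the values of both reactions were 10.39 and 10.25 at e12.5, 9.96 and 9.84 at e13.5, 8.83 and 8.88 at e14.5, 8.20 and 8.19 at e15.5, and 7.84 and 7.87 at e16.5. Each stage lay below the one before it, with no overlap between neighbouring stages. The stage mean went from 10.32 ± 0.10 to 7.86 ± 0.02 (SD, n = 2). The fitted change was -2.65 ± 0.18 (limma adjusted p = 0.000238), a 6.29-fold fall, the 4th largest among the 12411 probe sets of chip B. Under 24 alternative settings the fitted change stayed between -2.97 and -2.53, with the adjusted p at most 0.00409.

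A second Rdh10 probe set, 163634_at, had stage means of 7.18 ± 0.47 at e12.5, 6.94 ± 0.03 at e13.5, 5.95 ± 0.07 at e14.5, 5.58 ± 0.29 at e15.5 and 5.53 ± 0.06 at e16.5 (SD, n = 2). The reactions at e12.5, 7.51 and 6.84, spanned those of e13.5, and all values from e14.5 on lay below both earlier stages. The line gave -1.86 ± 0.23 (limma adjusted p = 0.00151). On 113074_at the values ran from 6.58 and 6.75 at e12.5 to 5.82 and 5.85 at e16.5, and the line gave -0.94 ± 0.13 (limma adjusted p = 0.00243). The fourth, 106548_at, did not pass, with 5.14 and 5.26 at e12.5, 5.46 and 5.48 at e16.5 and a fitted change of 0.23 ± 0.12 (limma adjusted p = 0.181). Its lowest values lay below the chip median, so the probe sets of Rdh10 disagreed in size, and one of them in sign.

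On each of the 3 Rdh10 probe sets that fell, the largest daily step was between e13.5 and e14.5. On 115816_at the steps were -0.42, -1.04, -0.66 and -0.34 in order of stage, and the drop to e14.5 was the one called (limma adjusted p = 7.1e-07). It was the only call among the 19 probe sets at that step, where 0.0245% of all probe sets were called lower. On 163634_at the same step was -0.98, just short of 2-fold.

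Aldh1a1, an aldehyde dehydrogenase that oxidises retinaldehyde to retinoic acid, was the member that rose. On 100068_at, on chip A, the values were 5.75 and 5.29 at e12.5, 6.33 and 6.12 at e13.5, 7.10 and 7.21 at e14.5, 8.85 and 8.64 at e15.5, and 8.91 and 8.88 at e16.5. All neighbouring stages were separated, though e15.5 and e16.5 lay close together. The stage mean was 5.52 ± 0.33 at e12.5, below the chip median, and 8.89 ± 0.02 at e16.5 (SD, n = 2). Over the 4 days the line rose by 3.71 ± 0.32 (limma adjusted p = 0.000951), a 13.1-fold rise, the 36th largest among the 12422 probe sets of chip A. Under 24 alternative settings it stayed between 3.42 and 4.24, with the adjusted p at most 0.00537.

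The largest daily step of Aldh1a1 was from e14.5 to e15.5, a day after that of the falling Rdh10 probe sets. The steps were 0.71, 0.93, 1.59 and 0.15, and that of 1.59 was called, at which 0.294% of all probe sets were called higher. From e15.5 to e16.5 no member was called, where 0.33% of all probe sets were, and from e12.5 to e13.5 none was either, where 0.128% were. The other Aldh1a1 probe set, 161956_at, lay between 4.22 and 4.50 on all 10 arrays, below the chip median. Its fitted change was 0.11 ± 0.10 (limma adjusted p = 0.463), so the rise was seen on 1 of the gene's 2 probe sets.

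Aldh1a2, the main retinoic acid making enzyme of the early embryo's mesoderm, did not pass on any of its 3 probe sets. On 101707_at, on chip A, the values were 5.40 and 5.46 at e12.5, 5.40 and 5.51 at e13.5, 5.60 and 5.64 at e14.5, 5.39 and 5.47 at e15.5, and 5.09 and 5.41 at e16.5. All lay below the chip median, with e14.5 highest, and the fitted change was -0.15 ± 0.14 (limma adjusted p = 0.465). On chip C, 169954_i_at lay between 5.44 and 5.70 with a fitted change of 0.02 ± 0.08, and 167134_r_at between 2.62 and 2.86, below the chip median, with -0.11 ± 0.07. Stages overlapped on both.

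**Figure D2:**
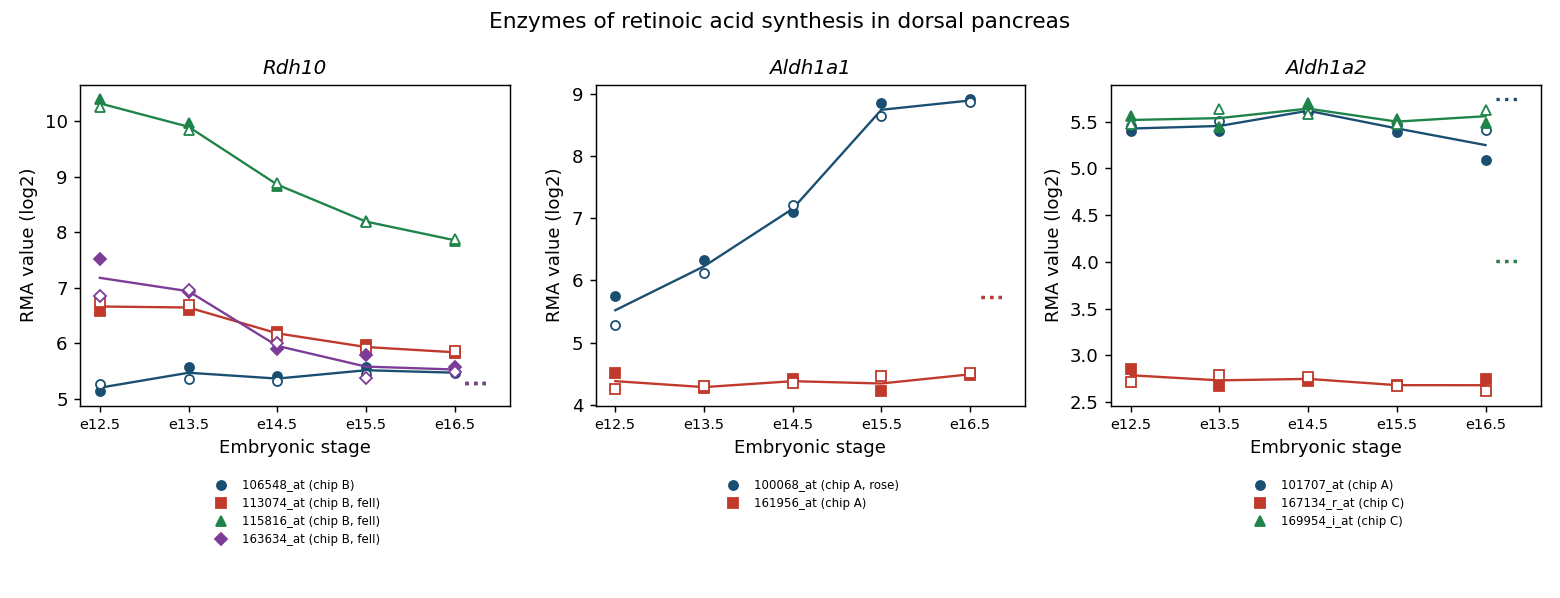
RMA values (log2, y axis) of the probe sets of Rdh10, Aldh1a1 and Aldh1a2 at each stage (x axis). Filled and open points are the labelling reactions of a stage, lines join their means, and dotted ticks at the right mark the median of the chip in the colour of the probe set. Rdh10 115816_at goes from 10.32 to 7.86 and Aldh1a1 100068_at from 5.52 to 8.89, while Aldh1a2 169954_i_at stays between 5.44 and 5.70. Probe sets of one chip share a tick.

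Crabp2, which carries retinoic acid to its receptors in the nucleus, fell on 1 of its 2 probe sets. On 100127_at the values were 4.11 and 4.49 at e12.5, 3.86 and 3.75 at e13.5, 3.28 and 3.50 at e14.5, 2.84 and 3.18 at e15.5, and 3.01 and 3.24 at e16.5. The first 3 stages were separated, and the last 2 overlapped. The line gave -1.25 ± 0.20 (limma adjusted p = 0.00702), with every value below the chip median. On chip C, 137179_at lay above its chip median, between 6.03 and 6.27, with a fitted change of -0.16 ± 0.10 (limma adjusted p = 0.248). The probe sets of Crabp2 thus disagreed.

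Crabp1, the related binding protein, read 6.29 and 6.28 at e12.5, 6.07 and 6.11 at e13.5, 6.16 and 6.07 at e14.5, 6.06 and 6.08 at e15.5, and 5.91 and 5.99 at e16.5. It was highest at e12.5 and lowest at e16.5, and the stages between overlapped. A change of -0.28 ± 0.10 did not pass (limma adjusted p = 0.0858). Rbp4, the plasma carrier of retinol, was highest at e13.5. Its values were 8.58 and 8.68 at e12.5, 8.92 and 8.91 at e13.5, 8.56 and 8.58 at e14.5, 8.46 and 8.38 at e15.5, and 8.28 and 8.27 at e16.5. Its order was e13.5, e12.5, e14.5, e15.5 and e16.5 from high to low, with no overlap between neighbours, although 8.58 was read at both e12.5 and e14.5 after rounding. The fitted change of -0.48 ± 0.17 did not pass (limma adjusted p = 0.0809), and leaving out the e12.5 pool gave -0.82 (adjusted p = 0.0195, against 0.00638 to 0.349 over all alternatives).

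Rara, the receptor present in most tissues, fell on all 3 of its probe sets, by small amounts. On 112056_at the values were 9.01 and 8.96 at e12.5, 8.72 and 8.77 at e13.5, 8.31 and 8.35 at e14.5, 8.47 and 8.36 at e15.5, and 8.42 and 8.35 at e16.5. All values from e14.5 on lay between 8.31 and 8.47, below those of the first 2 stages. The line gave -0.61 ± 0.16 (limma adjusted p = 0.0257). On 92901_at, below the median of chip A throughout, the values were 5.14 and 5.26 at e12.5, 5.16 and 5.07 at e14.5, and 4.38 and 4.15 at e16.5. There the drop came after e14.5, with a fitted change of -0.94 ± 0.19 (limma adjusted p = 0.0162). On 164041_at the values went from 6.73 and 6.54 at e12.5 to 5.95 and 6.25 at e16.5, with a fitted change of -0.42 ± 0.12 (limma adjusted p = 0.0418). The probe sets of Rara thus fell at different times.

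The calls of Rara rested on single pools. Without the e12.5 pool, 112056_at changed by -0.40 (adjusted p = 0.240) and 164041_at by -0.28 (0.289). Without the e13.5 pool, 112056_at changed by -0.60 (0.0698) and 92901_at by -0.89 (0.0510). Without the e16.5 pool, 92901_at changed by -0.57 (0.103) and 164041_at by -0.33 (0.285), and without the e14.5 pool 164041_at changed by -0.42 (0.0609). The 164041_at call was lost as well without e12.5 replicate 1 (-0.34, adjusted p = 0.0611), e13.5 replicate 2 (-0.39, 0.0688) or e16.5 replicate 1 (-0.30, 0.109). With quantile normalization applied again, 112056_at changed by -0.38 (0.0866) and 164041_at by -0.36 (0.0570). Over all alternatives the adjusted p ran from 0.000727 to 0.240 for 112056_at, 0.000266 to 0.103 for 92901_at and 0.00608 to 0.289 for 164041_at, always with a negative change.

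Rarb, the receptor gene whose promoter held the repeat printed above, fell on both probe sets. On 105632_at, on chip B and below its median in stage means throughout, the values were 5.05 and 5.40 at e12.5, 5.15 and 5.16 at e13.5, 5.02 and 4.97 at e14.5, 4.69 and 4.62 at e15.5, and 4.74 and 4.82 at e16.5. The last 2 stages lay below the first 3, with a fitted change of -0.56 ± 0.13 (limma adjusted p = 0.0175). On 165690_at, on chip C, the values were 7.68 and 7.66 at e12.5, 7.73 and 7.70 at e13.5, 7.61 and 7.61 at e14.5, 7.48 and 7.47 at e15.5, and 7.26 and 7.36 at e16.5. The order was e13.5, e12.5, e14.5, e15.5 and e16.5 from high to low, with no overlap between neighbours. The line gave -0.38 ± 0.09 (limma adjusted p = 0.0207).

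The calls of Rarb also rested on single pools. Without the e13.5 pool, 105632_at changed by -0.53 (adjusted p = 0.0541) and 165690_at by -0.34 (0.0635). Without the e12.5 pool 105632_at changed by -0.59 (0.0856), without e12.5 replicate 2 by -0.42 (0.0707), and without the e16.5 pool 165690_at changed by -0.27 (0.183). Over all alternatives the adjusted p ran from 0.000923 to 0.0856 for 105632_at and from 0.000621 to 0.183 for 165690_at.

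Rarg, the third receptor, had values of 6.06 and 5.99 at e12.5, 5.89 and 6.04 at e13.5, 6.07 and 6.04 at e14.5, 5.75 and 5.79 at e15.5, and 5.99 and 6.11 at e16.5. Only e15.5 stood below the other stages, and the fitted change was -0.06 ± 0.14 (limma adjusted p = 0.795). By role, 1 of 9 synthesis probe sets rose and 3 fell, 1 of 4 for binding proteins fell, and 5 of 6 receptor probe sets fell, with none rising in the last 2 roles. These stand beside 10.6% rising and 13.1% falling among all probe sets. The 5 receptor probe sets that fell are those of Rara and Rarb, so they are repeat readings and not 5 separate genes. With so few genes, no count by role is a result about the role.

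**Figure D3:**
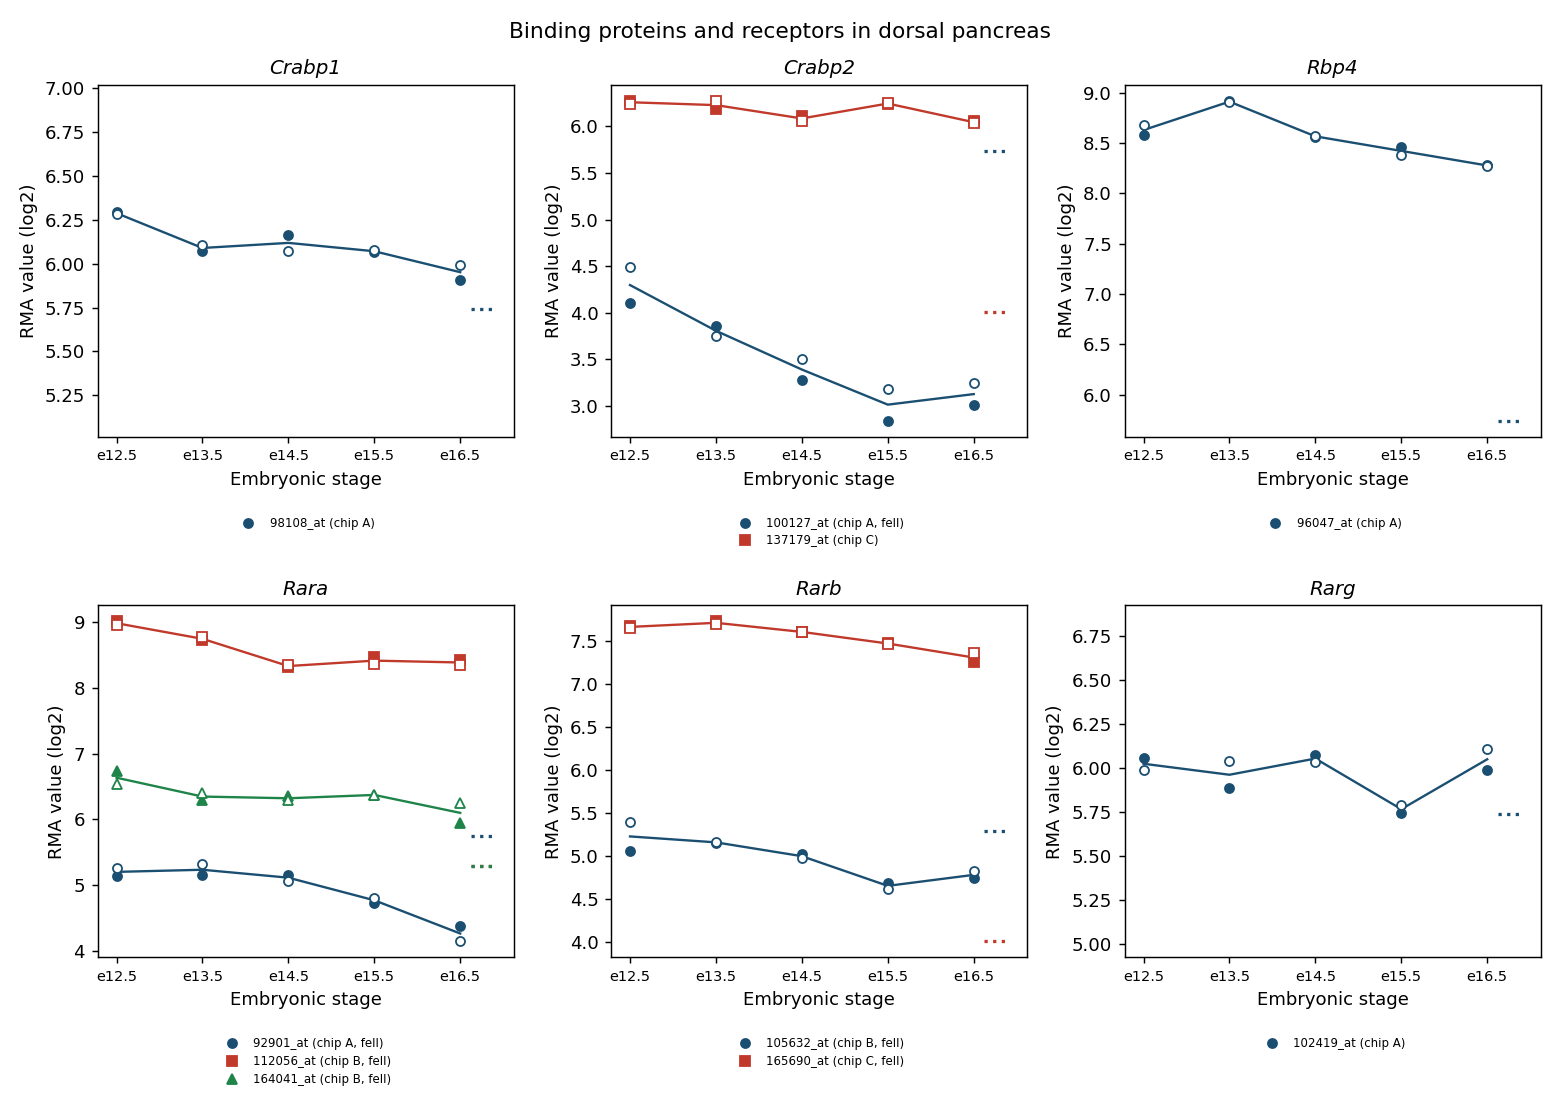
RMA values (log2, y axis) of the binding protein and receptor probe sets at each stage (x axis). Filled and open points are the labelling reactions of a stage, lines join their means, and dotted ticks at the right mark the median of the chip in the colour of the probe set. Panels differ in their range of y. Crabp2 100127_at is at or below 3.50 from e14.5 on, Rbp4 is highest at e13.5, and Rarg is lowest at e15.5.

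Between the ends of the series, 1 probe set was called higher at e16.5 than at e12.5 and 3 were called lower, where 1.44% and 3.03% of all probe sets were. Aldh1a1 100068_at differed by 3.37 ± 0.13 (limma adjusted p = 2.04e-09). Rdh10 115816_at differed by -2.46 ± 0.07 (limma adjusted p = 1.22e-12) and Rdh10 163634_at by -1.65 ± 0.16. Crabp2 100127_at differed by -1.17 ± 0.14 (limma adjusted p = 2.96e-05), and without e12.5 replicate 2 by -0.98, under 2-fold. No receptor probe set reached 2-fold. No member was called at e14.5 against the mean of both ends, where 0.218% of all probe sets were, so none showed a 2-fold peak or dip at mid-series. At an adjusted p under 0.05 with no fold minimum, 2 were higher at e14.5 and 2 lower. The share of all probe sets at that setting was not counted, so this is not a result about the members.

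Whether members of one role on one chip changed unequally was tested on the difference of their log2 values over the 5 pools, for 8 pairs, with an exact two-sided permutation test over the 120 orders of the pools. The smallest p the test can give is 0.0167, and no pair passed after Benjamini-Hochberg adjustment. Over 8 pairs a single pair at that smallest p is adjusted to 0.133, so a pair could not pass on its own. Aldh1a1 100068_at gained 3.86 ± 0.47 on Aldh1a2 101707_at (exact p = 0.0167, adjusted 0.133). Crabp1 gained 0.98 ± 0.28 on Crabp2 100127_at (exact p = 0.05, adjusted 0.133), and Rara 92901_at lost 0.88 against Rarg, with a difference of -0.88 ± 0.35 (exact p = 0.05, adjusted 0.133). The other pairs had differences between -0.78 and 0.26 and adjusted p-values from 0.3 to 0.817. With 5 pools these tests leave the size of each difference uncertain, and they do not show that any pair changed alike.

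The genes most like each strongly changing member were those on its chip with the smallest root mean square difference over the 10 arrays, after each was centred on its own mean. For Rdh10 115816_at they were Slitrk5 (0.128), Tril (0.131) and Tmem200a (0.138), in log2 units. Their fitted changes were -2.83 ± 0.25, -2.51 ± 0.14 and -2.40 ± 0.13. For Rdh10 163634_at they were the extracellular matrix gene Emilin1 (0.204), Fblim1 (0.213) and the neurofilament gene Nefm (0.223). For Aldh1a1 100068_at they were Rab3d (0.184), a GTPase of secretory granules, Ggh (0.187) and Tmem97 (0.208), with fitted changes of 3.50 ± 0.26, 3.68 ± 0.23 and 3.95 ± 0.26. For Crabp2 100127_at they were the cadherin gene Cdh11 (0.139), the mesothelial transcription factor gene Wt1 (0.144) and Ccn4 (0.145).

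Other genes of the pathway were taken from fixed lists, with the brightest probe set of each gene chosen as above. Of 80 genes listed 64 were measured, of which 8 rose, 15 fell and 41 did not pass, with a median fitted change of 0.04. Among all genes 11.9% rose and 17% fell, and the counts of each list below are to be read against those shares. For vitamin A uptake, storage and the first oxidation, 5 of 20 measured genes rose and 1 fell. Rbp2, a retinol binding protein of cells, rose by 1.56 ± 0.40 (limma adjusted p = 0.0344) and lay below the chip median at every stage. Dhrs3, which turns retinaldehyde back into retinol, rose by 0.59 ± 0.15 (limma adjusted p = 0.0314), while Rdh14 changed by -0.42 ± 0.10 (limma adjusted p = 0.0217). Adh4, Rbp7 and Rdh12 rose by 0.49, 0.39 and 0.34, with Adh4 and Rdh12 below the chip median at every stage. Stra6, the cell surface receptor for RBP4, changed by 0.27 ± 0.14 and did not pass (limma adjusted p = 0.221).

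None of the 4 other genes listed for the second oxidation passed. Aldh1a3, the third retinaldehyde dehydrogenase, changed by 0.05 ± 0.12 (limma adjusted p = 0.78). Aldh1b1, named after its values were seen, had stage means of 6.97, 7.47, 8.16, 8.56 and 7.68, highest at e15.5, and a line through them did not pass (1.01 ± 0.42, limma adjusted p = 0.117). Of the breakdown enzymes Cyp26a1 alone was measured. It lay below the chip median at every stage and changed by 0.15 ± 0.11 (limma adjusted p = 0.371).

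Among the retinoid X receptors and receptor cofactors, 1 of 16 measured genes rose and 7 fell. The nuclear receptor genes Nr2f1 and Nr2f2, known as COUP-TFs, fell by 2.50 and 1.07, the zinc finger gene Zfp423 by 1.38, and the corepressor gene Nrip1 by 1.13 and the coactivator gene Ncoa2 by 0.97. Fabp5, a fatty acid binding protein that can also carry retinoic acid, rose by 1.41 ± 0.26 (limma adjusted p = 0.0116). Of the partners of the RARs, Rxrg fell by 0.44 (limma adjusted p = 0.0468) and lay below the chip median at every stage. Rxra changed by -0.28 ± 0.10 (limma adjusted p = 0.0838) on its brightest probe set, and Rxrb by -0.15 ± 0.09 (0.27). Of the 5 probe sets of Rxra 1 fell, 112678_at, with a change of -0.63 ± 0.11 (limma adjusted p = 0.0066).

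Among textbook targets of retinoic acid, 2 of 23 measured genes rose and 7 fell, with a median fitted change of -0.20. The homeobox genes Hoxa5, Hoxa3, Hoxb2, Hoxb4 and Hoxa2, which set position along the body axis, fell by 1.72, 1.22, 1.16, 0.95 and 0.49. Of these, Hoxa2 lay below the chip median at every stage. Tshz1 and Rai14 fell by 1.45 and 1.44. Rarres2, which encodes the secreted protein chemerin, rose by 1.03 ± 0.16 (limma adjusted p = 0.0068), and Rarres1 by 0.59 ± 0.10, from below the chip median throughout.

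**Figure D4:**
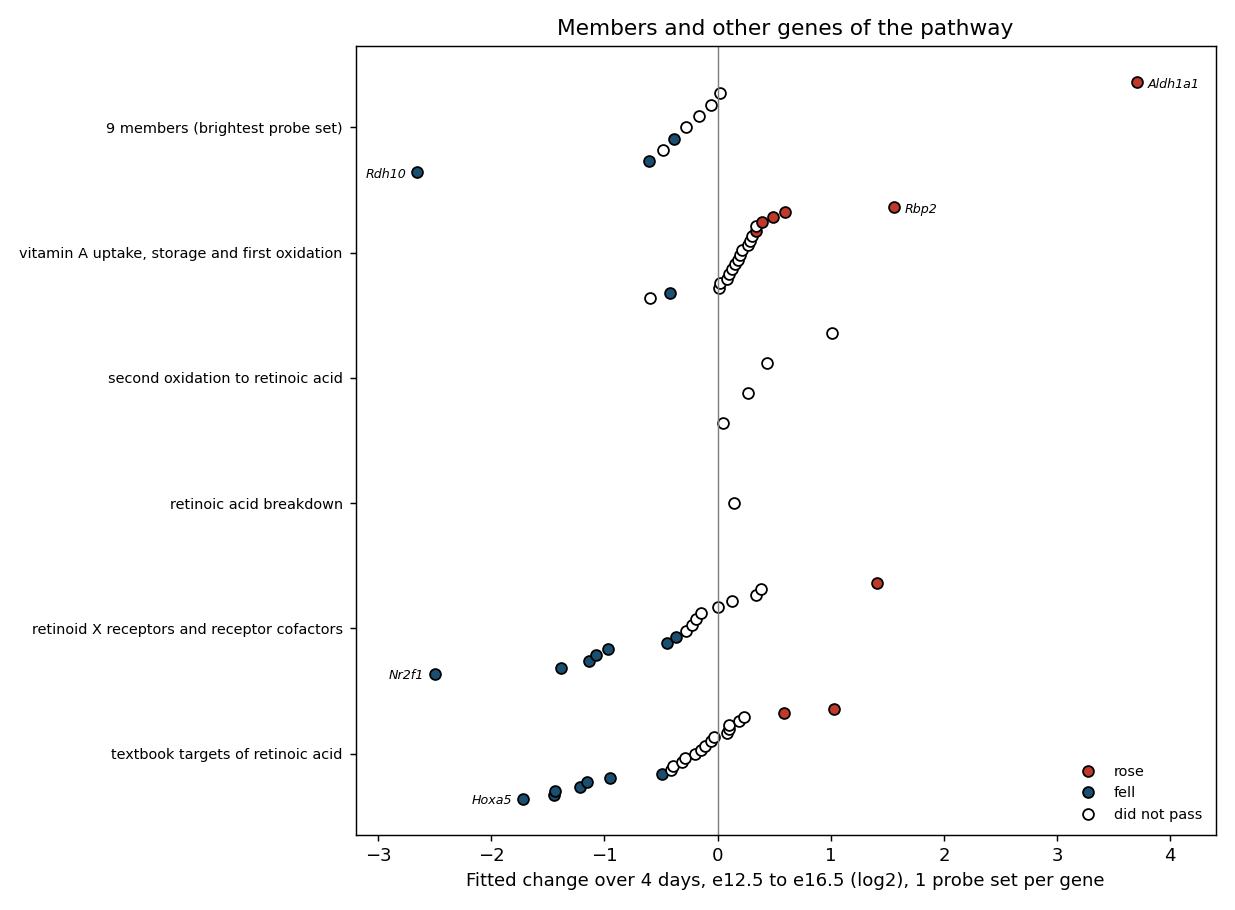
Fitted change over the 4 days (log2, x axis) of the 9 genes and of the other pathway genes by list, 1 point per gene at its brightest probe set, sorted by change within a list. Red marks a rise, blue a fall and open points did not pass, and genes past 1.5 log2 units are named. Aldh1a1 (3.71) and Rdh10 (-2.65) lie farther out than every pathway gene of the same direction.

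The RNA is from whole dorsal pancreas, in which fewer cells of a type and less RNA per cell cannot be told apart. Markers of several cell types moved with the members, and their part in the members' changes was not tested. Levels of a list are given as the sum of its genes' unlogged values, which the brightest genes dominate. Each gene enters from the chip of its brightest probe set, although values of different chips are not on one scale. Mesenchyme markers went from between 7541 and 7953 at e12.5 to between 4985 and 5088 at e16.5, with 8 of 16 genes falling, among them Hand2 (-2.72) and Tcf21 (-2.57), and 1 rising, Dcn (1.29). Markers of neural crest, neurons and Schwann cells went from between 1799 and 1867 to between 1017 and 1041, with 6 of 9 falling. Mesothelium markers went from between 725 and 733 to between 617 and 651, with 3 of 8 falling, Wt1 among them (-1.14), and 2 rising. Red cell markers went from between 18782 and 18802 to between 8218 and 8562, with 3 of 7 falling and 2 rising. Spleen primordium markers, which share genes with the mesenchyme list, went from between 499.9 and 528 to between 174 and 193, with 1 of 3 falling. The sums of these 5 lists were lower at e16.5 than at e12.5, the direction of Rdh10 and Crabp2.

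The sums of epithelium, acinar and endocrine markers, and that of stomach and gut markers, were higher at e16.5, the direction of Aldh1a1. Those of pancreatic epithelium went from between 1407 and 1448 to between 3661 and 3686, with 5 of 8 genes rising, such as Muc1 (2.72) and Krt18 (2.08), and Sox9 falling (-0.74). Acinar markers, the digestive enzyme genes and their regulators, went from between 3276 and 3385 to between 74743 and 76393, with 12 of 12 rising. Endocrine markers went from between 6069 and 6162 to between 10230.1 and 10913, with 4 of 11 rising and 2 falling. None of the epithelium and acinar markers lay below its chip median at every stage, while 8 of 12 hepatocyte markers, Alb among them, and 8 of 12 stomach and gut markers lay below the chip median at every stage. In these lists 1 hepatocyte marker and 4 stomach and gut markers rose, the last including Vil1 (2.41) and Tff2 (2.10). The stomach and gut sum went from between 493 and 508 to between 582 and 624. The hepatocyte sum went from between 610 and 623 to between 575 and 588. Endothelium markers went from between 1766 and 1774 to between 1705 and 1733, with 1 of 9 rising and 3 falling. The hepatocyte and endothelium sums were thus lower at e16.5 as well.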

How the data were processed

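Gene expression was measured in 30 samples, 5 stages on 3 chips with 2 labelling reactions each. The deposited values are log2 expression values made by the authors with RMA, per the submitters' processing notes. Software and version are not given in the sources used here. The 3 chips were treated as normalized separately, and RMA removes shifts in total RNA shared by all probe sets. Genes were named from the platform annotation, updated through Entrez identifiers to RefSeq (GRCm38.p6). Of 36701 probe sets, 29131 had 1 symbol, 724 several and 6846 none.

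Tests used limma 3.58.1 in R 4.3.3, with empirical Bayes moderation, two-sided, and figures and counts Python 3.11.15. The stage trend used pool means (5 per probe set), the stage contrasts 10 arrays per chip, and both were adjusted by Benjamini-Hochberg over the 3 chips together. The functions were tested on simulated data. A gene in a list was represented by its brightest probe set. All members' probe sets are named, and up to 3 genes per marker list. The plan was to name up to 5 passing genes per pathway list with the Cyp26, Rxr, Aldh1a3 and Stra6 genes. For some pathway lists more passing genes than that are named. The members, gene lists and tests were chosen with earlier results of these data known. Alternatives were other scalings, a brightness filter, an intensity trend, adjustment within chips, other treatments of the reactions, other fold minimums, and leaving out arrays or pools. Other choices of the probe set that stands for a gene were added after seeing the data. The number of arrays limits the precision, and no sample was left out.

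Replicate numbers did not pair samples across stages: deviations from stage means correlated at -0.176 to 0.11 between stages over all chips, and 1 of 30 correlations was over 0.1.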

Additional observations from a re-analysis of the deposited data

How the results depend on the processing

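Of 786 single values of the members recomputed under alternatives, 730 kept their direction and side of the threshold, 24 lost a call, 21 gained one and 11 changed sign, none of them a called value. Rdh10 115816_at and 163634_at and Aldh1a1 100068_at kept their calls in all 24 alternatives of the stage trend. With a 2-fold minimum on the trend, 3 probe sets fell in place of 9, as 2.67% of all probe sets did in place of 13.1%. Leaving out arrays or pools gave 5 to 9, with 5 without the e13.5 pool, where 8.99% of all probe sets fell. Ranking probe sets within their chip, chosen after seeing the data, left 1 gene rising and 3 falling, and counting a gene by any probe set gave 1 and 4. The shares of all genes by any probe set were not counted, so the last counts are not a result about the members. With a 1.5-fold minimum, e16.5 against e12.5 gave 6 lower calls and the consecutive steps gave 6 calls. With no fold minimum, e16.5 against e12.5 gave 2 higher and 12 lower, e14.5 against both ends 2 higher and 2 lower, and the steps 21. The shares of all probe sets at these fold minimums were not counted, so these counts are not results about the members. With the replicate number as a block, Rbp4 (-0.48, limma adjusted p = 0.0103) and Crabp1 (-0.28, 0.0115) also passed, and no member's call was lost. With that block 20.7% of all probe sets rose and 19.9% fell, in place of 10.6% and 13.1%, so calls increased among all probe sets as well. Since replicates do not pair, this block only treats the 10 arrays as separate. Leaving out arrays or pools turned the sign of uncalled values. In the stage trend these ran from -0.32 to 0.067 (Aldh1a2 101707_at), -0.040 to 0.074 (Aldh1a2 169954_i_at), -0.27 to 0.051 (Rarg) and -0.0070 to 0.23 (Aldh1a1 161956_at). At e16.5 against e12.5 they ran from -0.034 to 0.085 (Rarg), -0.014 to 0.23 (Aldh1a1 161956_at) and -0.031 to 0.11 (Aldh1a2 169954_i_at). Differences between members ran from -0.074 to 0.55 (Aldh1a1 161956_at minus Aldh1a2 101707_at), -0.14 to 0.19 (Rara 112056_at minus Rarb 105632_at) and -0.025 to 0.43 (Rara 164041_at minus Rarb 105632_at). The cause was not tested. With 4 pools the exact test cannot go below 0.0833. Values without detection calls limit what dim probe sets show.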
